A study of Mus musculus with 56 samples.

Results

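Single-cell (SC) libraries of mouse pituitary culture were divided by how much *Gh*, the growth hormone gene, they held relative to *Prl*, the prolactin gene. Each library carries the name of a plate well. The series has 56 wells, of which 46 had at least 100000 counts on genes. In 41 of these 46 wells *Prl* or *Gh* had a higher level than *Pomc* and than *Lhb* with *Fshb*, the other hormone genes weighed. Levels are CPM, counts scaled to the same total of gene counts in each well (1000000). The 24 compared wells were chosen by these measured hormone levels and by the ratio of *Gh* to *Prl*. The Gh-rich side holds the 11 wells in which *Gh* was at least 20% of *Prl*, the Gh-poor side holds the 13 wells in which it was at most 2%, and 17 wells lay between these limits. All 24 compared wells carry the same label: cells from primary pituitary cultures of randomly cycling C57BL/6 female mice aged 10 to 12 weeks, 5 pituitaries pooled per sample. The labels call the culture untreated and name no allele, transgene or drug. The study's supplement describes a qPCR panel on primary pituitary cultures treated with GnRH, the gonadotropin releasing hormone, and does not say whether the sequenced culture was another. The cells had been cultured for 4 days, trypsinized and kept in the RNA-Best preservative, then passed through a 10-µm filter and captured on a Fluidigm C1 circuit, where cells are isolated and lysed separately. cDNA was amplified with SMART-Seq v4 and synthetic ERCC spike-ins were present in each well. The labels name 1 culture and no separate animals, so the wells are 1 sample. Differences have no replicates behind them and were not tested, and SD is the spread over wells.

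*Gh* and *Prl* belong to 1 hormone gene family and mark the somatotropes and the lactotropes of the anterior pituitary. Both lineages depend on the transcription factor *Pou1f1*, as do the thyrotropes, and cells that hold both hormones are known as mammosomatotropes. Somatotropes receive growth hormone releasing hormone through the receptor *Ghrhr*, which signals through cAMP, while dopamine restrains lactotropes through *Drd2*.

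*Prl* (ENSMUSG00000021342.13) spans chr13:27057570-27065205 on the plus strand of GRCm38 and *Gh* (ENSMUSG00000020713.6) spans chr11:106300271-106301865 on the minus strand. The 250 bases before the start of *Prl*, chr13:27057320-27057569, plus strand, are shown because *Prl* is 1 of the 2 hormone genes that chose the wells and Pou1f1 is known to bind AT-rich sites in this promoter. The sequence is RefSeq's on GRCm38.p6. Capitals mark matches to TATNCAT or its reverse complement ATGNATA, the letters searched on both strands as a Pou1f1-type site.
Prl: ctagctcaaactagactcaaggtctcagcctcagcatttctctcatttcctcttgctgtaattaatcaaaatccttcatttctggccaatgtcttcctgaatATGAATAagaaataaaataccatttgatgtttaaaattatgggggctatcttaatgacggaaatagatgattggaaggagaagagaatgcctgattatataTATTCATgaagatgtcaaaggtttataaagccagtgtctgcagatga
The window held 2 matches that did not overlap, with first letters 148 and 47 bases before the start site. At least 1 match was present in 7.92% of 32851 windows of this length and at least 2 in 1.26%. Overlapping matches were counted separately, so the 1.26% is not limited to matches that do not overlap. A match is a description of the letters and not of binding. No window was listed for *Gh*.

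*Gh* and *Prl* chose the wells, so their levels are given as a description. *Gh* on the Gh-rich side ran from 4356 CPM in H4 through a median of 35891 to 307675 in C9, and on the Gh-poor side from 162 in C1 through 1206 to 4631 in H3. The sides met only at this edge, where H3 of the Gh-poor side was above H4 of the Gh-rich side. *Prl* ran from 2069 to 204530 CPM on the Gh-rich side (median 124249) and from 261669 to 573124 on the Gh-poor side (median 390971), and here the sides did not overlap.

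The limits did not fall in wide gaps. The wells just inside the Gh-rich limit were A10, with *Gh* at 22.0% of *Prl*, and E9, with 23.5%, and the nearest well outside was F12 with 18.2%. On the Gh-poor side H3 was just inside with 1.47% and H7 just outside with 2.16%. *Gh* was above *Prl* by CPM in 4 wells, C9, F4, B12 and H11, at 248%, 248%, 460% and 597% of *Prl*. CPM does not allow for transcript length: *Gh* has 862 exon bases and *Prl* 1408, so per length each ratio would be 1.63 times as high, and the same limits would give 13 Gh-rich and 12 Gh-poor wells, among them all 11 Gh-rich wells and 12 of the 13 Gh-poor wells used here.

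**Figure D1:**
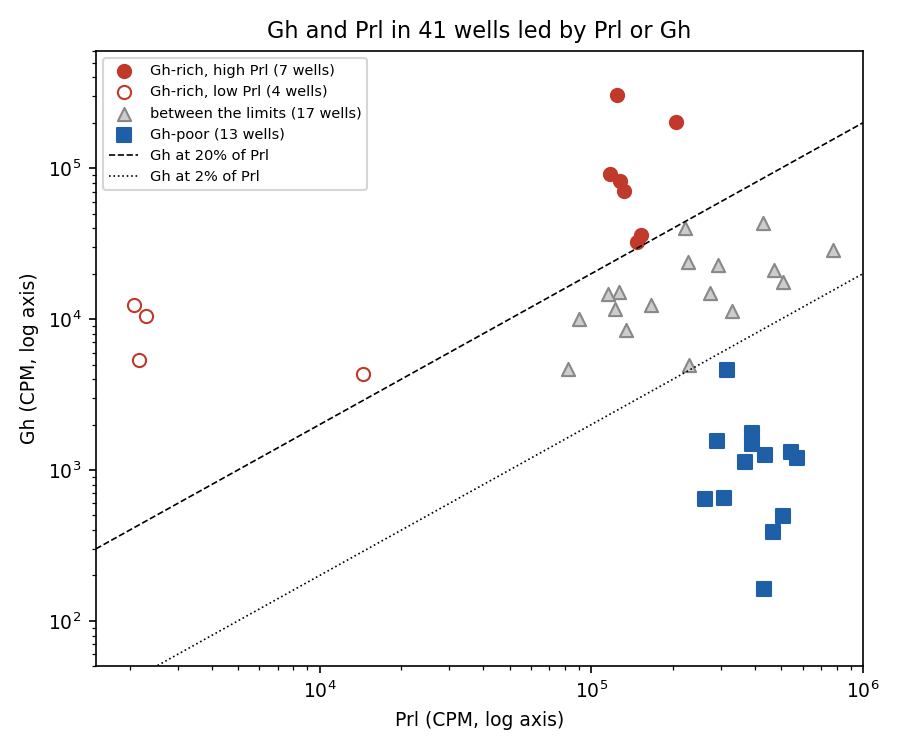
*Gh* against *Prl* in each of the 41 wells led by either hormone, both in CPM on log axes, with lines where *Gh* is 20% and 2% of *Prl*. The 7 filled circles of Gh-rich wells sit at 116813 to 204530 CPM of *Prl*, the 4 open circles at 2069 to 14379, and the 13 squares of Gh-poor wells at 261669 to 573124.

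The Gh-rich side was made of 2 unlike sets of wells, split here at 100000 CPM of *Prl* after the values had been seen. In the 7 wells with high *Prl* (A10, E9, E3, D2, E7, A11 and C9), *Gh* was 32529 to 307675 CPM, and 5 of them exceeded the highest *Gh* of the wells between the limits, 43353. In the 4 wells with low *Prl*, *Gh* was 4356 CPM in H4, 5384 in F4, 10514 in B12 and 12350 in H11. All 4 lay below the median of the wells between the limits, 14893, so these wells met the 20% limit with little *Prl* and not with much *Gh*. *Prl* and *Gh* together took 18.0% to 43.2% of gene counts in the first set, 0.756% to 1.87% in the second and 26.2% to 57.4% in the Gh-poor wells. Results below are therefore given for the side as a whole and, for many genes and lists but not all, for each set. Both sets share the 13 Gh-poor wells as their comparison.

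Depth differed between the sides. Counts on genes ran from 111195 to 7043039 in the Gh-rich wells, with a median of 744499, and from 183945 to 10664342 in the Gh-poor wells, with a median of 4485894. The 7 Gh-rich wells with high *Prl* had 111195 to 907642 counts, and the 4 with low *Prl* had 2133329 to 7043039. Spike-ins took a median of 7.41% of all counts on the Gh-rich side (0.159% to 66.1%) and 0.375% on the Gh-poor side (0.144% to 63.0%). Genes with a count numbered 7636 per well at the median (SD 2434) against 9028 (SD 1744), and 4331 (SD 1280) against 4814 (SD 1218) once each well was thinned to 100000 counts, a gap smaller than either SD. The plate also divided the wells: columns 1 to 3 and 7 to 9 held 5 Gh-rich and 10 Gh-poor wells, and columns 4 to 6 and 10 to 12 held 6 Gh-rich wells, the 4 with low *Prl* among them, and 3 Gh-poor wells. The part of depth, spike-in share and plate position in the gene differences was not tested beyond the alternatives given here. The protocol has no molecular identifiers, so counts are reads. Intervals below are for the share of wells with a gene. They treat wells as independent draws although the wells are 1 sample, and do not cover spread between cultures or animals.

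**Figure D2:**
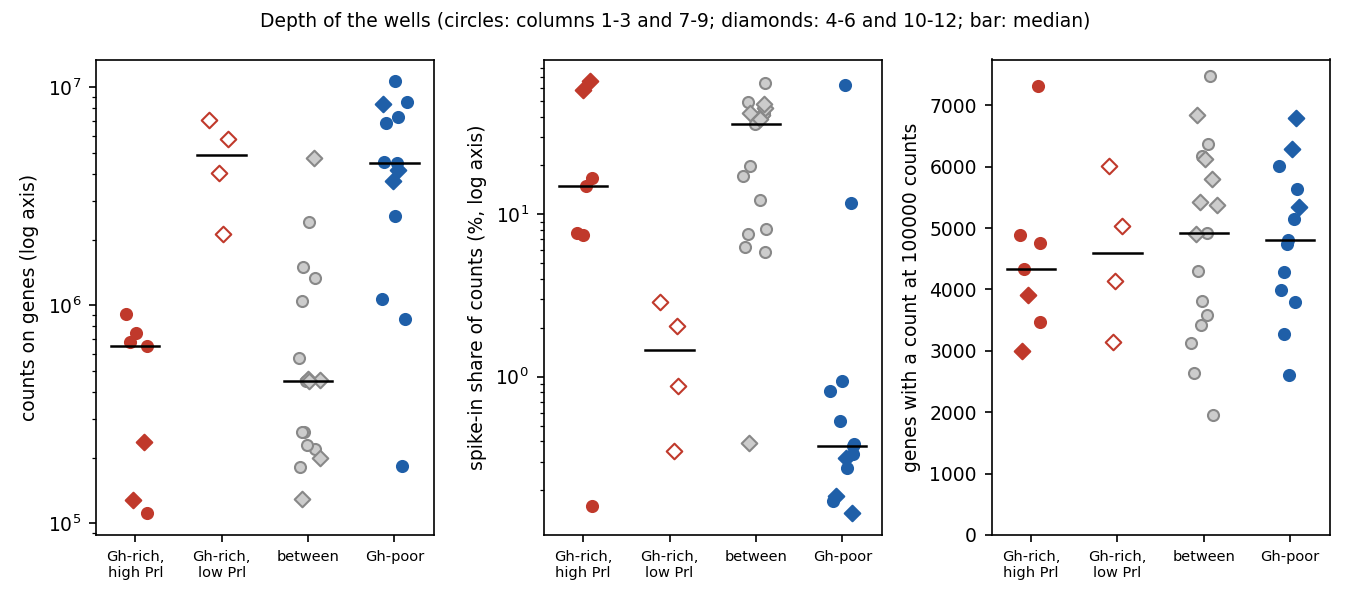
Counts on genes, spike-in share (both log axes) and genes with a count after thinning to 100000 counts, 1 point per well, with the median of each set as a bar, circles for columns 1 to 3 and 7 to 9 and diamonds for the others. The Gh-rich wells with high *Prl* lie below 907642 counts or at that value, while the median of the Gh-poor wells is 4485894.

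Across the genome, 7409 genes had a mean of at least 10 CPM over the 24 wells. Differences are of mean log2(CPM + 1), Gh-rich minus Gh-poor, and a difference of 2 or more, 4-fold on this scale, is called past the fold. It was reached by 118 genes with the higher mean on the Gh-rich side (1.59% of those compared) and by 246 with the higher mean on the Gh-poor side (3.32%). The median difference of all 7409 genes was -0.18. It moved to -0.53 when *Prl*, *Gh* and *Pomc* were taken out of the total, a shift of -0.35, and the counts became 88 and 571, with 13.4% in place of 32.4% of them on the Gh-rich side. *Prl* was the only gene whose wells did not overlap between the sides (0.0135% of genes), and 0 genes separated in the other direction (0.0%). The 7 Gh-rich wells with high *Prl* against the Gh-poor wells gave 176 and 496 genes (2.38% and 6.69%), and the 4 wells with low *Prl* gave 904 and 608 (12.2% and 8.21%). Leaving out 1 well moved these counts as well: without A10 the Gh-rich side had 187 genes past the fold, and without E9 the Gh-poor side had 403.

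*Pou1f1*, the lineage factor of both cell types, was found on both sides. At a limit of 1 CPM it was detected in 11 of 11 Gh-rich wells, 10 of 13 Gh-poor wells and 17 of 17 wells between the limits, and after thinning in 10 of 11 and 10 of 13. Its level ran from 1.41 to 695 CPM in the Gh-rich wells (median 18.5) and from 0.281 to 309 in the Gh-poor wells (median 119), so the sides overlapped over nearly their whole range. The difference of means was -0.23, small beside an SD over wells of 3.15 on the log2 scale, and its sign was not stable: it was 0.58 for the wells with high *Prl* and -1.65 for those with low *Prl*. Within the low-*Prl* set, *Pou1f1* was 1.74 CPM in H4, 1.41 in F4, 2.84 in B12 and 695 in H11. H11 thus held the highest *Pou1f1* of all Gh-rich wells beside 3 wells with almost none. *Pou1f1* (chr16:65520511-65535005) overlaps the gene Gm49631, and the strand setting of the counting is not given in the sources used here.

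*Ghrhr*, the receptor for growth hormone releasing hormone, was detected in 2 of 11 Gh-rich wells, or 18.2% with an exact Clopper-Pearson 95% interval of 2.28% to 51.8%. It was 14.2 CPM in H11 and 4.08 in H4, and had no count in the other 9. It had no count in any of the 13 Gh-poor wells, which allows a share of wells with a count of up to 23.1% and sets no limit on cells that express the gene. It was detected in 1 of 17 wells between the limits. None of the 7 Gh-rich wells with high *Prl* had a *Ghrhr* count, although *Gh* was highest there; those wells were also the shallower ones. The difference of means was 0.57, below the SD over wells of 0.93. At this depth most Gh-rich wells had no *Ghrhr* count.

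Of 25 transcription factors of the pituitary lineages, 10 passed the filter of 10 CPM. None of these 10 was past the fold, beside 1.59% and 3.32% of all genes toward the Gh-rich and Gh-poor sides, shares so low that a list of 10 can be read for neither. Their median difference was -0.44 beside -0.18 for all genes. *Neurod4*, a basic helix-loop-helix factor of the somatotrope lineage, was detected in 9 of 11 Gh-rich and 12 of 13 Gh-poor wells, with medians of 12.8 and 88.4 CPM and a difference of -1.86. In the low-*Prl* set it had no count in H4 and B12 but was 662 CPM in F4 and 1103 in H11. *Lhx3*, a LIM homeobox factor of early pituitary, was detected in 1 of 11 and 5 of 13 wells, with a difference of -1.29. *Eya1*, a transcriptional co-activator, had the largest difference toward the Gh-rich side, 1.22. Its wells still overlapped, from 0 to 102 CPM against 0 to 42.1.

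Of 14 somatotrope genes, 4 passed the filter, with a median difference of 0.29 and 0 past the fold. *Dlk1*, a transmembrane Notch-family ligand that is abundant in somatotropes, was detected in all 24 wells, at 4.96 to 1332 CPM on the Gh-rich side and 9.15 to 929 on the Gh-poor side, with a difference of 0.22. The somatostatin receptors were nearly silent. *Sstr1* had 38.9 CPM in H11, *Sstr3* had 69.8 CPM in F4, *Sstr2* reached 2.34 CPM in a single Gh-poor well, and *Sstr5* and the ghrelin receptor *Ghsr* had no count in any of the 24 wells. Of 14 lactotrope genes, 5 passed the filter, with a median difference of 0.82 and 0 past the fold. That median was 0.22 for the high-*Prl* set and 1.48 for the low-*Prl* set. *Drd2*, the dopamine receptor, was seen in 1 of the 24 wells, the Gh-poor well G1, at 16.6 CPM. *Esr1*, the estrogen receptor, was detected in 6 of 11 and 6 of 13 wells, with a difference of 0.17. *Gal*, encoding the neuropeptide galanin, which lactotropes make under estrogen, was detected in all 24 wells with a difference of 0.03. Its level was 5.70 CPM in H4, 2699 in F4, 512 in B12 and 14191 in H11, so that the low-*Prl* wells held both its lowest Gh-rich value and its highest.

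**Figure D3:**
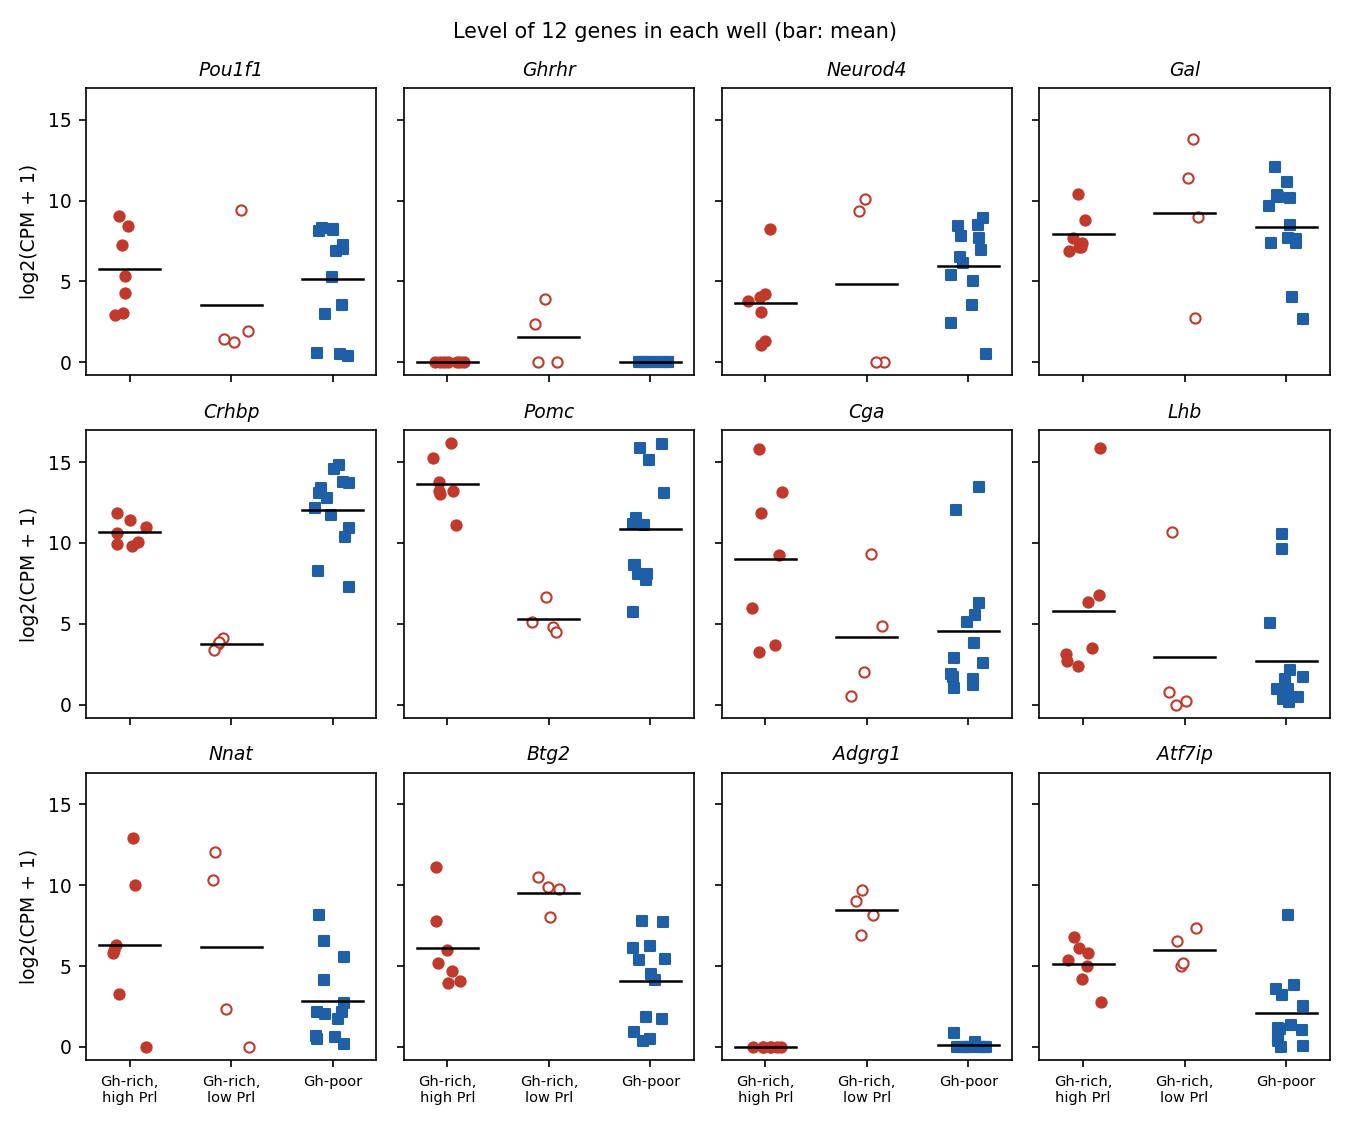
Levels of 12 genes as log2(CPM + 1), 1 point per well, with the mean of each set as a bar: filled circles for the 7 Gh-rich wells with high *Prl*, open circles for the 4 with low *Prl*, squares for the 13 Gh-poor wells. *Adgrg1*, *Crhbp* and *Pomc* set the low-*Prl* wells apart from the other Gh-rich wells, while *Pou1f1*, *Gal* and *Neurod4* spread over several log2 units in all 3 sets.

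The remaining hormone genes varied within the Gh-rich side more than between sides. *Pomc*, the precursor of corticotropin, was 2241 to 73004 CPM in the Gh-rich wells with high *Prl* and 27.0, 33.8, 102 and 21.4 CPM in H4, F4, B12 and H11. It was 53.1 to 70823 CPM in the Gh-poor wells. The pooled difference of -0.21 thus joined 2.84 for the high-*Prl* set and -5.56 for the low-*Prl* set. *Cga*, the alpha subunit shared by the gonadotropins and thyrotropin, had medians of 62.8 and 6.28 CPM and a difference of 2.71. That value was 4.46 for the high-*Prl* set and -0.36 for the low-*Prl* set. *Lhb*, the beta subunit of luteinizing hormone, was detected in 8 of 11 and 6 of 13 wells (8 and 3 after thinning) and differed by 2.08. *Cga* overlaps the gene Platr9 and *Lhb* overlaps Ruvbl2. E3 held *Cga* at 57530 CPM, *Lhb* at 59401 CPM and the sole *Fshb* level of the side, 2464 CPM. Without E3 the differences were 1.85 for *Cga* and 0.97 for *Lhb*, both under the 4-fold limit. On the Gh-poor side, G7 and H3 held the highest *Cga*, 11038 and 4222 CPM. *Tshb*, the beta subunit of thyrotropin, did not exceed 13.9 CPM in the Gh-rich and 38.3 CPM in the Gh-poor wells.

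Markers of other cell types were present on both sides. Of 6 gonadotrope markers, 5 had a count on each side, with a summed level of 3.72 to 122460 CPM in the Gh-rich wells, highest in E3, and of 1.87 to 12528 in the Gh-poor wells, highest in G7. The medians were 622 and 6.87 CPM. *Foxl2* had no count on the Gh-rich side and *Fshb* none on the Gh-poor side. *Gnrhr*, the gonadotrope receptor for gonadotropin releasing hormone, was 3060 CPM in E3 and 63.8 in F4. F4 also held 1643 CPM of *Lhb* and 30.0 CPM of *Nr5a1*, the gonadotrope transcription factor. The 8 endothelial markers summed to 11165 CPM in H4, with *Plvap* at 4885, *Kdr* at 1681 and *Cdh5* at 1267 CPM, and to 1440 CPM in the Gh-poor well F6, while the medians of the sides were 0.695 and 0.480 CPM. Without H4 and F6 the genes past the fold were 197 and 193. Without E3 they were 144 and 265.

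The ranges of the other marker lists overlapped between the sides, while several of their medians were far apart. Corticotrope and melanotrope markers, 3 of 6 with a count on the Gh-rich side and 5 of 6 on the Gh-poor side, summed to 21.4 to 73004 and 102.5 to 71294 CPM (medians 8471 and 2218); *Tbx19*, the factor that defines the lineage, had no count in the Gh-rich wells. Thyrotrope markers, 4 of 5 with a count on each side, followed *Cga*, at 0.469 to 57550 and 1.17 to 11039 CPM, with medians of 334 and 6.99 CPM. Folliculostellate and stem cell markers, 5 and 6 of 12 with a count, summed to 1.56 to 3444 and 9.79 to 3938 CPM (medians 93.6 and 117), with *S100b* and *Sox2* at 0 throughout. Macrophage markers, 9 and 7 of 10, reached 5234 CPM in E7 and 419 CPM in H12, with medians of 32.0 and 50.2 CPM. Stromal markers, 3 of 9 on each side, had a median of 11.8 CPM on the Gh-rich side against 202 on the Gh-poor side and reached 72.5 and 514 CPM, with *Col1a1*, *Lum*, *Pdgfra* and *Pdgfrb* at 0. Blood cell markers, 5 of 9 on each side, reached 12455 CPM in A11 and 1543 CPM in H9 (medians 197 and 42.2). The paired globin genes *Hbb-bs* and *Hbb-bt*, which share reads, differed by 2.32 and 2.34 toward the Gh-rich side. Pituicyte markers stayed at or under 0.248 and 32.7 CPM, with 1 and 3 of 4 having a count. Doublets were not called, and the part of other cell types in the gene differences was not tested.

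Among genes higher on the Gh-rich side, *Nnat*, an imprinted proteolipid of endocrine and neural cells, was past the fold in both sets of Gh-rich wells and both sets of plate columns. It ran from 0 to 7618 CPM on the Gh-rich side (median 61.7) and from 0.120 to 284 on the Gh-poor side (median 3.48), a difference of 3.41 with SDs of 4.60 and 2.52. The 4 highest values of the 24 wells were those of E3, H11, F4 and E9, all Gh-rich. *Nnat* was nonetheless without a count in A10 and H4, and it overlaps the gene Blcap. *Rab3b*, a small GTPase of secretory vesicles, was detected in 9 of 11 and 5 of 13 wells and differed by 2.47, with its highest values in E3 (3898 CPM) and F4 (1681 CPM). Without E3, a well with gonadotrope genes, *Nnat* differed by 2.75 and *Rab3b* by 1.73. F4, which also held *Lhb*, *Gnrhr* and *Nr5a1*, was kept in that comparison.

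*Atf7ip*, a chromatin protein that acts in histone H3 lysine methylation, came after *Gh* among genes ranked toward the Gh-rich side by the order of their wells. In 90.2% of the 143 pairs of a Gh-rich and a Gh-poor well, the Gh-rich well was higher. It was 5.89 to 162 CPM in the Gh-rich wells (median 40.1) and 0 to 282 in the Gh-poor wells (median 1.23), where F6 alone exceeded 13.2 CPM. The difference was 3.39 for the side, 3.07 for the high-*Prl* set and 3.94 for the low-*Prl* set. After thinning it was detected in 11 of 11 and 2 of 13 wells. *Stx3*, a syntaxin of membrane fusion, followed with 87.4% of pairs, then *Pccb*, a subunit of mitochondrial propionyl-CoA carboxylase, with 86.0% and *Taf2*, a TFIID subunit, with 83.9%. Their differences were 2.47, 2.77 and 3.14. All 3 were low, with Gh-rich medians of 15.7, 27.8 and 10.3 CPM.

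*Adgrg1*, an adhesion G protein-coupled receptor, set the low-*Prl* wells apart. It was 835 CPM in H4, 282 in F4, 529 in B12 and 120 in H11. It had no count in the 7 Gh-rich wells with high *Prl* and did not exceed 0.803 CPM in the Gh-poor wells or 3.83 CPM in the wells between the limits. The pooled difference of 2.99 thus came from 4 wells, through which alone *Adgrg1* passed the filter of 10 CPM. The difference was 8.37 for the low-*Prl* set and -0.09 for the high-*Prl* set. *Nrsn1*, a vesicle protein of neurons, had the largest difference after *Gh*, 3.80, with 15837 CPM in A10, 963 in H11, 513 in F4 and no count in E7 and C9. *Jagn1*, an endoplasmic reticulum protein, differed by 3.07 and also had its highest value in A10, 23963 CPM. A10 was a shallow well, with 127487 counts on genes and 58.0% spike-ins. Its 3286 genes with a count were the fewest of the compared wells.

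Immediate-early genes (IEGs), which rise within minutes of stimulation, had a median toward the Gh-rich side. Of 25 IEGs, 17 passed the filter. Past the fold were 4 toward the Gh-rich side, where 1.59% of all genes were, and 1 toward the Gh-poor side, where 3.32% were. The median difference was 0.99 beside -0.18 for all genes. The 4 were *Btg2*, an antiproliferative gene (3.31), *Zfp36*, which encodes an mRNA-decay protein (2.68), and the AP-1 subunits *Jun* (2.66) and *Junb*, whose medians were 16.5 and 1.16 CPM. *Btg2* was 14.7 to 2200 CPM in the Gh-rich wells (median 222) and 0.281 to 223 in the Gh-poor wells (median 21.4). Each of the 4 was farther from the Gh-poor wells in the low-*Prl* set, at 5.49, 4.65, 4.80 and 4.87, than in the high-*Prl* set, at 2.06, 1.56, 1.44 and 1.14. *Fos* differed by 1.21 and *Egr1* by 1.12, both under the limit, and *Fos* ranged from 0.521 to 1436 CPM on the Gh-rich side and from 0 to 588 on the Gh-poor side. *Klf6*, a zinc-finger factor, was past the fold toward the Gh-poor side at -2.18. *Klf10*, a related factor outside the list, differed by 3.72. It was 1065 CPM in H11, 561 in F4, 442 in D2, 230 in B12 and 201 in H4. In the Gh-poor wells it was at most 5.36 CPM, so it passed the filter of 10 CPM only through Gh-rich wells.

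Of 30 genes of the secretory granule, 26 passed the filter, with 12 above 0, 14 below 0 and a median of -0.03 beside -0.18 for all genes. *Nnat* and *Rab3b* were the 2 past the fold toward the Gh-rich side and 0 were toward the Gh-poor side, small counts to set beside the 1.59% and 3.32% of all genes. *Chgb* and *Scg2*, granins that fill the granules, differed by -1.02 and -0.62, and *Chga* by 0.59. *Pcsk1*, a prohormone convertase, differed by 1.26 and reached 2462 CPM in F4 and 804 CPM in H11. *Cadps2*, a priming factor for granule exocytosis, was detected in 2 of 11 and 10 of 13 wells (1 and 7 after thinning) and differed by -1.83. In the endothelial-marked well H4, *Scg2* was 6.45, *Chgb* 13.1 and *Cpe* 1.24 CPM, which were the lowest Gh-rich values of these 3 granule genes. Other genes of the list were not low there. *Pam* was at least 156 CPM in each low-*Prl* well, H4 among them, and at most 133 in the high-*Prl* set. *Chga* was at least 116 CPM in each low-*Prl* well, beside a median of 98.7 in the high-*Prl* set.

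The endoplasmic reticulum list has 40 genes for translocation, folding and the unfolded protein response. Of 39 that passed the filter, 34 were below 0, as were 4232 of all 7409 genes, and the median was -0.68 beside -0.18. Past the fold were 2 toward the Gh-poor side and 0 toward the Gh-rich side, counts near the 3.32% and 1.59% of all genes. The 2 were *Dnajb11*, a co-chaperone of *Hspa5* (-2.34), and *Manf*, a secreted stress-response factor (-2.02). *Manf* was 3.97 to 769 CPM in the Gh-rich wells (median 116) and 89.7 to 1444 in the Gh-poor wells (median 402). *Hspa5*, the main luminal chaperone, differed by -0.50, and *Calr*, a calcium-binding chaperone, by -0.97. The median of the list was -0.91 for the high-*Prl* set and -0.06 for the low-*Prl* set, beside -0.48 and 0.19 for all genes, so the 2 sets differed in the same direction over the list and over the whole table.

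In the cAMP pathway, through which *Ghrhr* signals, 17 of 25 genes passed the filter, with a median of -0.68 beside -0.18 for all genes. The median was -0.96 for the high-*Prl* set and 0.06 for the low-*Prl* set, beside -0.48 and 0.19 for all genes. Past the fold were 0 toward the Gh-rich side and 1 toward the Gh-poor side, counts near the 1.59% and 3.32% of all genes. The gene past the fold was *Rgs2*, a regulator of G protein signalling, at -2.99. It was 7.39 to 2516 CPM in the Gh-poor wells (median 156) and 32.4 to 537 in the Gh-rich wells with high *Prl*, but 0.992 in H4, 0.469 in F4, 4.12 in B12 and 0.695 in H11. *Creb1*, the transcription factor at the end of the pathway, was detected in 1 of 11 and 6 of 13 wells and differed by -1.76. *Gnas*, the stimulatory G protein subunit, differed by 0.36.

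**Figure D4:**
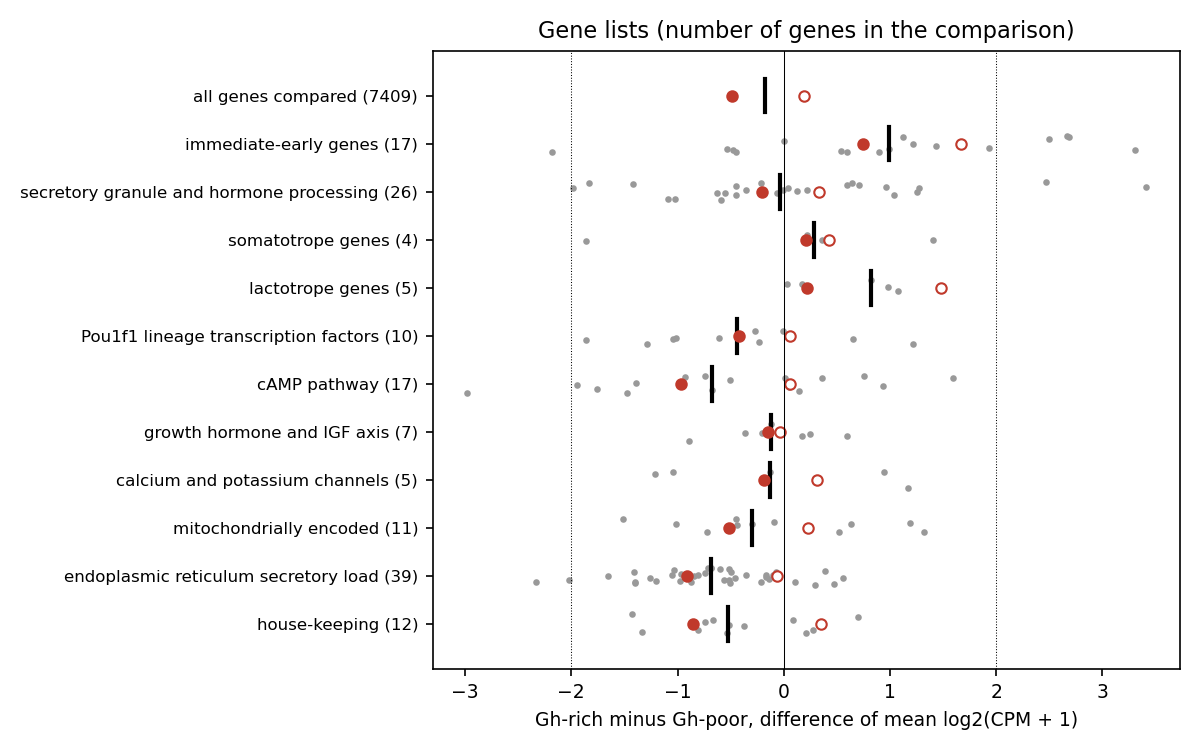
Differences of the genes of each list, Gh-rich minus Gh-poor, in mean log2(CPM + 1), with the number of genes compared in brackets. Grey points are genes other than *Gh* and *Prl*, the black bar is the median, and filled and open circles are the medians for the Gh-rich wells with high and with low *Prl*; the IEGs have a median of 0.99 and the endoplasmic reticulum list -0.68, beside -0.18 for all 7409 genes.

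Smaller lists held few genes that passed the filter. The growth hormone and IGF axis had 7 of 21, with a median of -0.12. The calcium and potassium channels had 5 of 25, with a median of -0.13. Below that filter, *Kcnk2*, a background potassium channel, was detected in 8 of 11 Gh-rich wells at up to 16.1 CPM and in 0 of 13 Gh-poor wells, where the highest level was 0.117 CPM. In wells of under 1000000 counts a single count exceeds 1 CPM, and after thinning *Kcnk2* was detected in 2 of 11 and 0 of 13 wells. Of 13 mitochondrially encoded genes, 11 passed the filter, with a median of -0.30; *mt-Nd1*, a complex I subunit, was highest at 1.32. The 12 house-keeping genes had a median of -0.52, from -1.43 for *Hprt* to 0.70 for *Ppia*. The RNA quality and stress list had a median of -0.16 over 13 genes, and the cell cycle list 0.47 over 8 of 23. These 6 lists had 0 genes past the fold in either direction, beside 1.59% and 3.32% of all genes.

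Genes higher on the Gh-poor side included *Crhbp*, which binds corticotropin releasing hormone. It was 157 to 29088 CPM in the Gh-poor wells (median 6930) and 879 to 3710 in the Gh-rich wells with high *Prl* (median 1572), but 16.6 in H4, 12.7 in F4, 9.23 in B12 and 13.4 in H11. The low-*Prl* wells were below every other well of the 41, since the lowest *Crhbp* of the wells between the limits was 231 CPM. The difference was -3.90 for the side, -1.40 for the high-*Prl* set and -8.28 for the low-*Prl* set. *Crhbp* (ENSMUSG00000021680.7) lies at chr13:95431371-95444924 on the minus strand.

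*Gstm1*, a glutathione transferase, had the lowest difference of all genes, -3.95, and it was nearly the same in both sets of Gh-rich wells, -3.89 and -4.04. It was 0.778 to 803 CPM in the Gh-poor wells (median 117) and 0 to 111 in the Gh-rich wells (median 1.10), where H4 and E9 alone exceeded 10 CPM. *Ptpn5*, a protein tyrosine phosphatase of neurons, was detected in 11 of 13 Gh-poor and 3 of 11 Gh-rich wells and differed by -3.88. *Laptm4b*, a lysosomal membrane protein, was detected in 9 and 1 wells and differed by -3.53. *Pcdh9*, a protocadherin, was detected in 8 of 13 Gh-poor wells, at up to 61.1 CPM, and in 0 of 11 Gh-rich wells. The Gh-rich wells hold 3 of its counts in total, so it passed the filter of 10 CPM only through Gh-poor wells. Thinning left both shares as they were. *Tardbp*, an RNA-binding protein, differed by -3.82, with 31599 CPM in the Gh-poor well A3 and 2.90 to 191 CPM in the others. A3 was the shallowest Gh-poor well, with 183945 counts on genes and 63.0% spike-ins. *Anxa2*, a membrane-binding annexin, differed by -3.62, with a Gh-poor median of 467 CPM and a Gh-rich median of 105.

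The order of the wells ranked 10 further genes toward the Gh-poor side. *Nhp2*, a component of box H/ACA ribonucleoproteins, was higher in the Gh-rich well in 9.79% of pairs, with medians of 6.20 CPM on the Gh-rich side and 116 on the Gh-poor side. *Cinp*, a protein of the replication checkpoint, followed with 11.2% of pairs. *Cycs*, cytochrome c, differed by -1.35 and the Gh-rich well was higher in 11.9% of pairs, with small SDs over wells of 0.96 and 0.77. *Mpc1* and its copy Mpc1-ps, which share reads, differed by -2.46 and -2.67, and *Mrpl23* was higher in the Gh-rich well in 12.6% of pairs. The rest of those ranked by pairs, *C1galt1c1*, *Emc2*, *Nfic* and *Laptm4b*, had differences of -3.01, -3.17, -2.77 and -3.53.

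The 2 sets of plate columns share no well, so each gives its own comparison. Columns 1 to 3 and 7 to 9, with 5 Gh-rich and 10 Gh-poor wells, had 619 genes past the fold toward the Gh-rich side and 315 toward the Gh-poor side (8.35% and 4.25%). Columns 4 to 6 and 10 to 12, with 6 and 3 wells, had 250 and 1845 (3.37% and 24.9%). Of the genes toward the Gh-rich side, 30 were past the fold in both. They were 4.85% of the first list, beside 3.37% of all genes, and 12% of the second, beside 8.35%. Of those toward the Gh-poor side, 99 were shared. They were 31.4% of the first list, beside 24.9% of all genes, and 5.37% of the second, beside 4.25%. Both overlaps were thus not far above the shares over all genes. A further 136 genes were toward the Gh-rich side in the first set and toward the Gh-poor side in the second. All low-*Prl* wells lay in the second set, so the 2 sets compared unlike Gh-rich wells. Across the 7409 genes, Pearson's r between the differences in the 2 sets was 0.07 and 3818 had the same sign. Genes are not independent replicates. The part of plate position in each comparison was not tested.

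Past the fold toward the Gh-rich side in both column sets and in the high-*Prl* set were 18 genes, *Gh* included. *Nnat*, *Btg2*, *Fars2*, *Cga*, *Lhb*, *Rab3b*, *Impdh1*, *Pccb* and *H2-T24* were among them. *Fars2*, the mitochondrial phenylalanyl-tRNA synthetase, differed by 3.37 and 3.87 in the 2 column sets, and *Nnat* by 5.27 and 2.03. Toward the Gh-poor side 96 of the 7409 genes met the same conditions, out of 99 past the fold in both column sets. Because of the shared wells, the high-*Prl* condition is no separate check of the column sets. *Gstm1* differed by -2.71 and -5.75, *Ptpn5* by -2.74 and -6.10, *Laptm4b* by -3.23 and -5.40, and *Mrpl42*, a mitochondrial ribosomal protein, by -2.93 and -4.37. *Crhbp* was not among them, with -0.83 and -7.08, and *Atf7ip* differed by 3.59 and 1.53.

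**Figure D5:**
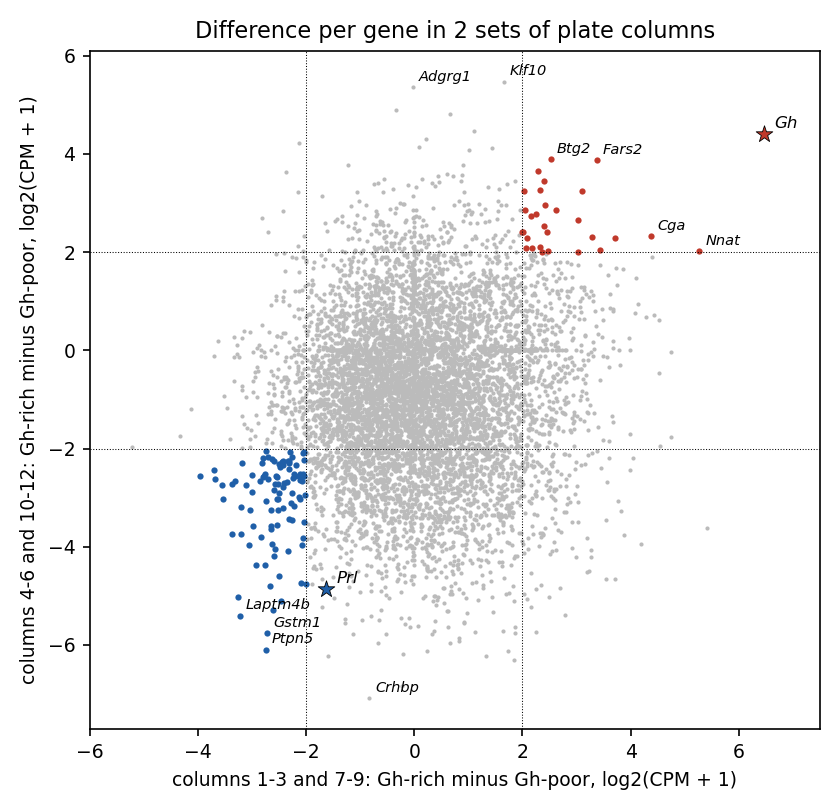
Difference of mean log2(CPM + 1), Gh-rich minus Gh-poor, for each of 7409 genes in columns 1 to 3 and 7 to 9 (x axis) and columns 4 to 6 and 10 to 12 (y axis), with dotted lines at 2 and -2. Coloured points are genes past the fold with the same sign in both sets, stars are *Gh* and *Prl*, and the cloud has an r of 0.07.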

How the data were processed

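Estimated counts, not scaled to depth, were deposited for the SC libraries in a single table; 33.5% of its values above 0 are not whole. It holds 47069 genes and 92 ERCC spike-ins. The submitters' processing notes name STAR 2.5.1b, featureCounts 1.5.0-p1 and mm10. The study's methods give GENCODE M8 for bulk RNA-seq aligned and counted with those versions; the release and strand setting for SC libraries are not given in the sources used here. Reads of paralogs and pseudogenes can be spread over copies. Symbols and positions come from GENCODE M21 (GRCm38), in which 46488 identifiers matched.

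CPM was computed over genes only. Wells needed 100000 counts. Differences use log2(CPM + 1) and genes with a mean of at least 10 CPM over the 24 wells. Thinning drew 100000 counts per well in a single random draw after rounding. Intervals are Clopper-Pearson 95% for the share of wells. Where 0 wells had the gene, the limit is 3 divided by the number of wells. A gene was detected at 1 CPM. Wells are 1 sample, so no count model was fitted. C10 and C11, nearly identical, both lie between the limits.

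Genes were named if they stood in a gene list, were among the 10 with the largest difference in each direction, the 10 with the largest mean of the 2 column-set differences of like sign, or the 10 best by pairs of wells. The members, the lists and the split of plate columns were chosen with earlier results of these data known. The split by *Prl*, the marker wells left out, *Plvap*, *Kdr* and *Cdh5* as examples, the gene families and the alternatives per exon length were chosen after the values were seen. Code was tested on simulated data with 200 changed genes. Python 3.11.15 was used with numpy 2.4.6, scipy 1.17.1, pandas 2.3.3 and matplotlib 3.10.9.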

Additional observations from a re-analysis of the deposited data

How the results depend on the processing

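The counts of genes past the fold, 118 toward the Gh-rich and 246 toward the Gh-poor side, depended on most choices. They were 416 and 804 with a pseudocount of 0.1, 8 and 15 with 10, and 57 and 116 with a mean of 50 CPM. That last filter compares fewer genes, and 32.95% of its genes past the fold lay toward the Gh-rich side, beside 32.42% as reported. The median over wells in place of the mean gave 477 and 1033. Columns 1 to 3 and 7 to 9 gave 619 toward the Gh-rich side, and columns 4 to 6 and 10 to 12 gave 250 and 1845. Toward the Gh-rich side the count was 262 in wells with a spike-in share under 30%, 319 in wells with at least 500000 counts, and 197 without H4 and F6. Toward the Gh-poor side it was 571 without *Prl*, *Gh* and *Pomc* in the total, 532 for Prl-led wells, 40 with limits of 10% and 5%, and 479 with limits of 30% and 1%. The alternatives chosen after seeing the data gave 496 toward the Gh-poor side for the high-*Prl* wells, and 904 and 608 for the low-*Prl* wells. Leaving out each well in turn gave 91 to 187 and 205 to 403 genes, with the highest counts without A10 and without E9. It gave *Pou1f1* differences of -0.68 to 0.14, *Ghrhr* differences of 0.23 to 0.63, differences in median genes per well of -1697.5 to -997, and a median spike-in share 4.77 to 7.20 percentage points higher. The *Ghrhr* difference was 1.57 for the low-*Prl* wells. Of the genes and lists past the fold as reported, those that changed sign were *Cga* at -0.36 and the thyrotrope markers at -0.45 for the low-*Prl* wells, and *Adgrg1* at -0.0287 in columns 1 to 3 and 7 to 9 and -0.0876 for the high-*Prl* wells. Values under the fold changed sign as well, such as the medians of the hormone list at -0.18 and the blood cell markers at -0.17 for the low-*Prl* wells. The causes were not tested. Among single genes and lists, 37 further values moved by more than the spread over wells and 5139 did not. That spread was itself wide, with SDs of 4.60 and 2.52 for *Nnat*, above the fold limit of 2. Staying within it therefore does not show that a value was stable. The share of genes past the fold that lay toward the Gh-rich side ran from 11.9% in columns 4 to 6 and 10 to 12 to 72.2% with limits of 10% and 5%. No paired analysis was possible because the labels give 1 group with no shared replicate numbers. The 7 high-*Prl* wells were the shallower Gh-rich wells, so a lack of counts there is weak evidence that a low gene such as *Ghrhr* was absent. In a single random thinning, *Ghrhr* was detected in 2 of 11 Gh-rich and 0 of 13 Gh-poor wells. At such low levels a single draw does not show whether depth mattered. The part of depth in the lack of *Ghrhr* counts was not tested.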

Other observations

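Gene families chosen after the values were seen add to the genes that were higher on the Gh-poor side. Of 78 mitochondrial ribosomal protein genes, 75 passed the filter of 10 CPM, 55 were below 0, 10 were past the fold toward the Gh-poor side (3.32% of all genes were) and 0 toward the Gh-rich side, with a median difference of -0.52 beside -0.18 for all genes. Their median was 0.11 in columns 1 to 3 and 7 to 9 and -1.76 in columns 4 to 6 and 10 to 12. The medians of all genes in these column sets were 2.5e-05 and -0.92, so the whole table was also lower in the second set. Of 36 complex I subunits of the respiratory chain, all passed the filter and 4 were past the fold toward the Gh-poor side. Their median was -0.69, with -0.96 for the high-*Prl* and 0.25 for the low-*Prl* wells, beside -0.48 and 0.19 for all genes. The cytosolic ribosomal proteins (84 of 88 compared) had 0 past the fold and a median of -0.49, and the ATP synthase subunits (15 of 16) 0 and -0.43. The cytochrome c oxidase genes (18 of 29) had 0 and -0.25. They were taken by name and hold assembly factors such as *Cox15* and *Cox17* beside the subunits. The proteasome subunits (37 of 39) had 1 toward the Gh-poor side and -0.38. The proteasome median was -1.24 for the high-*Prl* and 1.03 for the low-*Prl* wells, beside -0.48 and 0.19 for all genes.

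The 4 low-*Prl* wells also differed from each other in single genes, picked here after their values were seen. *Spp1*, which encodes osteopontin, was 67753 CPM in F4 and 2.41 to 12.2 CPM in the other 3, with 5106 CPM in E3 of the high-*Prl* set. *Atf3*, a stress-response factor, was 3975 CPM in B12 and 5.04 to 12.1 CPM in the other 3. *Prlr*, the prolactin receptor, was 494 CPM in H11, 5.68 in B12 and without a count in H4 and F4. H11 was the well with the highest *Pou1f1*, *Gal* and *Ghrhr* levels of the Gh-rich side, with *Gh* at 12350 CPM.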
